A study of Papaver somniferum with 12 samples.

Results

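PB.225.272 was the only unigene of the locus numbered PB.225 in the table of leaf expression from opium poppy (Papaver somniferum), and it had the highest value in all 12 libraries. It was found by its identifier, which in this table is made of PB, a locus number and a last number. The rule looked for every row that starts with PB.225, and 1 of 61856 unigenes was found. The locus had been picked because it holds the highest unigene of every library, so its rank and its high level are given as a description and were not tested. Its differences among cultivars were not part of that choice.

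Leaves were sampled while the capsules filled, a stage that follows the fall of the flowers, from the cultivars B2, T, Z and G, which came from directed breeding and differ in their benzylisoquinoline alkaloids according to the study. For each cultivar, 3 independent samples were collected, and RNA was sequenced as 1 library per sample. No cultivar was a control for the others. Values are in RPKM, the unit named in the study's data records. RPKM divides the reads of a unigene by its length and by the mapped reads of the library. The study's methods name FPKM, which counts fragments in place of reads, and which unit applies was not settled here. The unigenes came from long reads of another cultivar, B1, so a transcript whose sequence differs from B1 can have a low value in B2, T, Z or G without a low RNA level.

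A unigene is a transcript sequence that stands for a group of near-identical sequences in an assembly made without a genome. In green leaves the RNA pool is commonly uneven, and transcripts for proteins of photosynthesis are often among the most abundant ones. RNA extracted from a whole leaf sums over all its cell types, so more cells that use a gene and more RNA per cell cannot be told apart. The identifier PB.225.272 is not paired with a gene name or a sequence in the sources used here, so no function is given for it.

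The locus was first examined for its isoforms. The table held 61856 unigenes under 61856 different locus numbers, and 0 loci had 2 or more rows. PB.225.272 therefore held the whole value listed for its locus in every library, and proportions of isoforms among B2, T, Z and G could not be computed. The study reports more non-redundant isoforms than unigenes, so isoforms of a locus can exist without a row. Whether PB.225 has such isoforms was not tested. The sources used here do not state whether a row covers 1 transcript or all transcripts of its locus.

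The last number of the identifier was high for this unigene. The last number was 1 in 70.6% of all unigenes and went up to 2622, and 10 unigenes had a higher last number than PB.225.272. Of these, PB.115.445 had the highest mean over the 12 libraries, with 7994 RPKM, and PB.1536.351 had the lowest, with 9.43 RPKM. The number moved with level across the whole table. The median of the mean RPKM was 0.451 for the 43660 unigenes with a last number of 1, 3.87 for the 16262 unigenes from 2 to 9, 14.9 for the 1901 from 10 to 99, and 1510 for the 33 at 100 or more. At least 100 RPKM was reached by 0.802%, 5.52%, 14.2% and 81.8% of the unigenes in these classes, in the same order. Unigenes are not independent replicates, no test was applied, and what the last number counts is not stated in the sources used here.

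**Figure D1:**
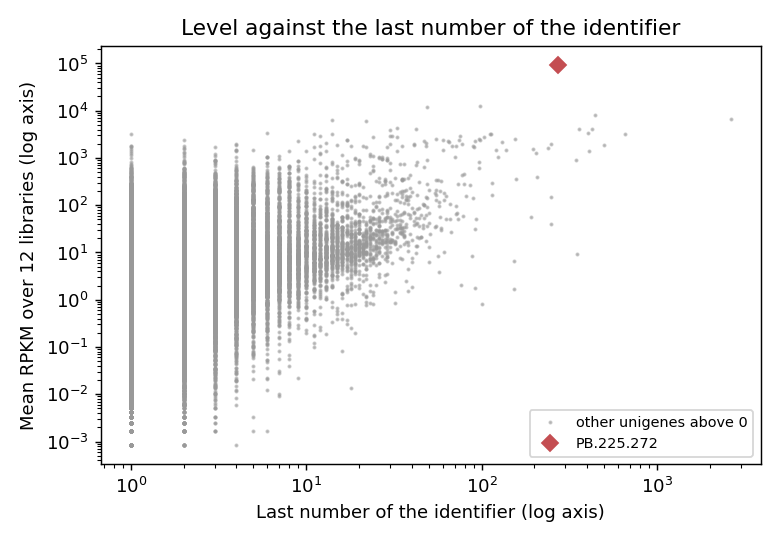
Mean RPKM over the 12 libraries (log axis) against the last number of the identifier (log axis) for every unigene above 0, 1 point per unigene. PB.225.272, the red diamond, lies above all other unigenes, and the 33 unigenes at 100 or more have a median of 1510 RPKM.

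The level of PB.225.272 was then compared between libraries. In B2 its values were 108927, 113948 and 89961 RPKM for replicates 1, 2 and 3. In T it had 90410, 86144 and 107942 RPKM. The Z libraries had 81602, 75661 and 87582 RPKM, and the G libraries had 101489, 91513 and 80757 RPKM. B2 replicates 1 and 2 were the highest of all libraries, followed by T replicate 3, and Z replicate 2 was the lowest. The highest library was 1.51 times the lowest. B2 averaged 104279 ± 12651 RPKM, T averaged 94832 ± 11552 RPKM, Z averaged 81615 ± 5961 RPKM and G averaged 91253 ± 10369 RPKM (SD, n = 3 libraries each). Among replicates the highest library was 1.27 times the lowest in B2, 1.25 times in T, 1.16 times in Z and 1.26 times in G, so the spread between replicates covered a large part of the range over all libraries.

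**Figure D2:**
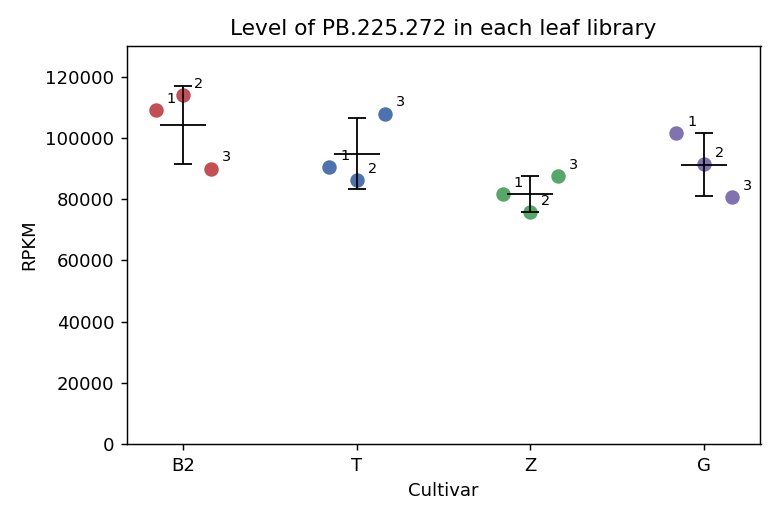
RPKM of PB.225.272 in each library by cultivar, with the replicate number beside each point, and the mean and SD of the 3 libraries as black lines. In these values as deposited the 3 libraries of B2 lie above the 3 of Z, a gap lost under median-ratio scaling (85125 for the lowest B2 and 88669 for the highest Z library), and all other pairs of cultivars overlap.

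Pairs of cultivars were compared to find out whether the level differed by more than the replicates did. The B2 libraries, at 89961 RPKM or more, all lay above the Z libraries, at 87582 RPKM or less. This gap was lost under median-ratio scaling of the libraries, where the lowest B2 library was at 85125 and the highest Z library at 88669 scaled RPKM. In the values as deposited, all 3 libraries of B2 lay above all 3 of Z for 23.1% of the 33161 tested unigenes, so such a gap was common there. Such gaps were not counted after scaling. Scaling moved the median log2 difference of B2 minus Z over all tested unigenes from 0.063 to -0.015. For PB.225.272 the groups overlapped in the other 5 pairs, and in all 6 pairs after scaling. B2 was higher in 7 of the 9 pairs of single libraries with T and in 7 of the 9 with G. T was higher in 8 of the 9 with Z and in 5 of the 9 with G. Z was higher in 2 of the 9 with G.

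In limma's test of log2(RPKM + 1), fitted over all tested unigenes, PB.225.272 was called in 0 of the 6 comparisons, where a call needed a difference of at least 1 together with an adjusted p under 0.05. At an unadjusted p under 0.05 the number was also 0, and the unadjusted p ran from 0.177 to 0.825. The share of all tested unigenes that were called was 7.05% for B2 and T, 8.17% for B2 and Z, 5.96% for B2 and G, 0.754% for T and Z, 1.03% for T and G, and 0.663% for Z and G.

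The difference farthest from 0 was that of B2 and Z, at 0.35 on the log2 scale (SE 0.241, 95% interval -0.18 to 0.88), which is 1.27-fold, with a limma adjusted p of 0.326. B2 minus T was 0.14 (interval -0.40 to 0.67) and B2 minus G was 0.19 (interval -0.34 to 0.72). T minus Z was 0.21 (interval -0.32 to 0.75) and T minus G was 0.055 (interval -0.48 to 0.59). Z minus G was -0.16 (interval -0.69 to 0.38). All 6 intervals included 0. They lay within a difference of 1 in this fit, but 5 of 6 passed 1 with a pseudocount of 0.1 (B2 minus Z -0.53 to 1.22), 6 of 6 without a filter (B2 minus Z -2.08 to 2.78) and 3 of 6 in fits on 2 cultivars (T minus Z -1.67 to 2.09). Without B2 replicate 1, without B2 replicate 3 or without Z replicate 3, 1 of 6 passed it, with an upper end of 1.06, 1.03 and 1.03 for B2 minus Z.

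The spread that limma used for this unigene was larger than its own. The SD of PB.225.272 within cultivars was 0.159 on the log2 scale. The model expects a spread from the level of a unigene, and at the level of PB.225.272 it expected 0.524, which gave a combined value of 0.296. No other unigene lay near that level. The mean of log2(RPKM + 1) was 16.5 for PB.225.272 and 13.6 for PB.974.98, the next highest. A fit with 1 expected spread for all unigenes, added after these values were seen, gave a combined spread of 0.162 and an SE of 0.132. In that fit the interval of B2 minus Z was 0.056 to 0.64, with an unadjusted p of 0.0238 and a limma adjusted p of 0.081, and the intervals of the 5 other comparisons included 0.

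**Figure D3:**
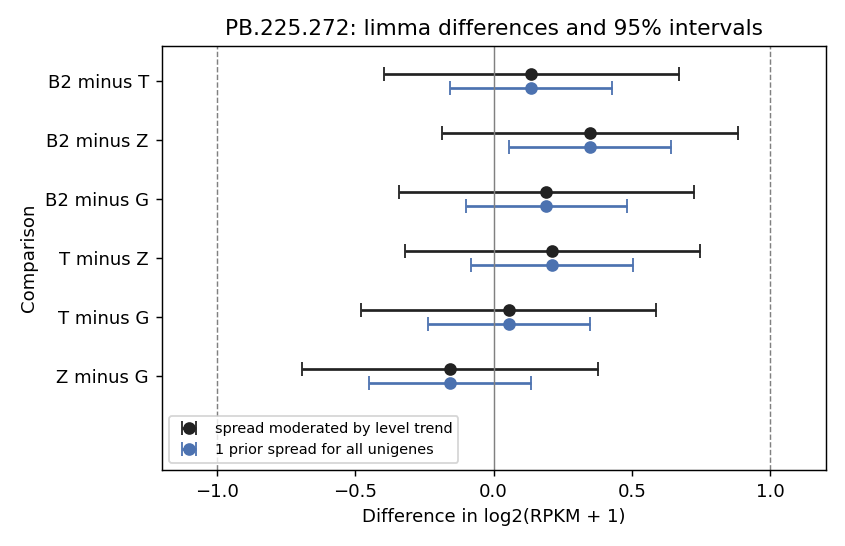
Differences in log2(RPKM + 1) of PB.225.272 for the 6 pairs of cultivars, with 95% intervals from limma, either with the spread moderated by a trend over level (black) or with 1 prior spread for all unigenes (blue). Dashed lines mark a difference of 1, and of the 12 intervals only the blue one of B2 minus Z, at 0.056 to 0.64, leaves out 0.

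**Figure D4:**
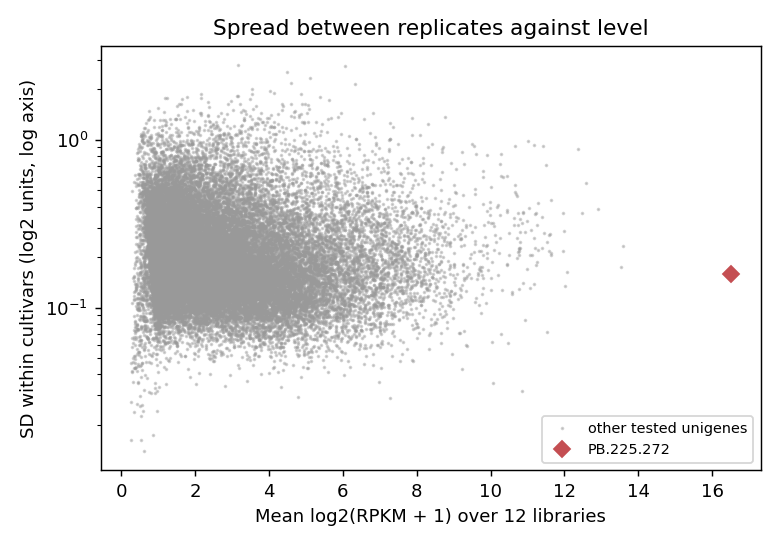
SD within cultivars (log axis) against the mean of log2(RPKM + 1) for each of the 33161 tested unigenes. PB.225.272, the red diamond, had an SD of 0.159 at a mean of 16.5, to the right of every other unigene.

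The level was also tested from the 12 values of PB.225.272 alone. Cultivar accounted for 0.482 of its sum of squares on the log2 scale (exact permutation test over 15400 partitions, p = 0.136). Shuffled labels also give a share above 0, so the share is read only with its p. After median-ratio scaling it was 0.354 (exact permutation test, p = 0.283). Over the runs without 1 library each the share went from 0.384 to 0.644. The exact tests were added after the values were seen. Between 2 cultivars, the exact two-sided permutation p was 0.1 for B2 and Z, which is the smallest that 3 against 3 libraries can give, so these tests could not pass 0.05, and from 0.2 to 0.7 for the 5 other pairs. Adjusted over the 6 comparisons, the exact p of B2 and Z was 0.36. In limma's F-test over the 4 cultivars the adjusted p was 0.671, and 22.3% of the 33161 tested unigenes had an adjusted p under 0.05. With 1 expected spread for all unigenes, limma's F-test gave PB.225.272 an unadjusted p of 0.127 and an adjusted p of 0.249.

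B2 replicate 3 stood apart from the other B2 libraries over the whole table. In it, 515 unigenes reached 1 RPKM while both of its replicates stayed under 0.1 RPKM, against 8 to 85 such unigenes in each of the other libraries. It was also the B2 library with the lowest value of PB.225.272. In the study's quality values this library had the lowest RNA integrity number of the 12 libraries, by a small margin below B2 replicate 1. It also had the lowest share of bases read at high quality (Q30), with Z replicate 2 close above it. Whether quality bears on its values was not tested. Without it, B2 minus Z was 0.45 (SE 0.258, limma adjusted p = 0.22), and the share of the sum of squares between cultivars was 0.644 (exact permutation test, p = 0.0666). That share was the highest over the runs without 1 library each. The part of this library in the result was not tested further.

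The share of the summed RPKM was examined next. PB.225.272 held 10.3%, 11.3% and 8.56% of the summed RPKM in B2 replicates 1, 2 and 3. It held 8.64%, 8.41% and 10.2% in T, 7.95%, 7.62% and 8.51% in Z, and 9.99%, 8.96% and 8.001% in G. B2 had a mean share of 10.04% ± 1.37, T of 9.10% ± 1.0004, Z of 8.03% ± 0.452 and G of 8.98% ± 0.994 (SD, n = 3 libraries each). The order of the libraries differed little from that by RPKM, since the sum of all other unigenes was steadier, with 1.07 times between the lowest library (896026 RPKM, B2 replicate 2) and the highest (960851 RPKM, B2 replicate 3). RPKM is scaled per length, so a share of summed RPKM is not a share of reads. No test was applied to these shares.

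The gap between PB.225.272 and the next unigene was wide in every library. It was 5.96 to 10.4 times the level of the second highest unigene, with a median of 6.76 times. B2 had a mean ratio of 7.98 ± 2.16, T of 7.02 ± 0.566, Z of 6.12 ± 0.148 and G of 7.78 ± 1.14 (SD, n = 3 libraries each). The second place was taken by PB.974.98 in 8 libraries, by PB.46813.49 in 3 (B2 replicate 2, T replicate 2 and G replicate 2) and by PB.28066.14 in B2 replicate 1. PB.225.272 alone had 1.15 to 2.08 times the summed level of the 9 next highest unigenes of the library. From 12 to 33 of the next highest unigenes were needed to reach its level, with the fewest in T replicate 1 and the most in B2 replicate 2.

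**Figure D5:**
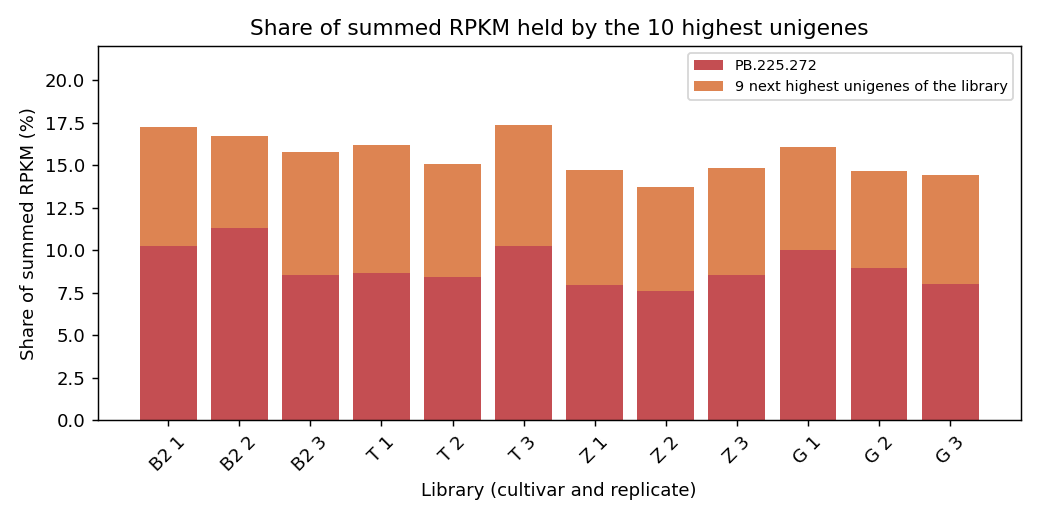
Share of summed RPKM (%) in each library held by PB.225.272 (red) and by the 9 next highest unigenes of that library (orange). The red part, 7.62% to 11.3%, is lowest in Z replicate 2, highest in B2 replicate 2 and larger than the orange part in all 12 libraries.

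PB.225.272 varied less between libraries than most unigenes of high level. Its SD within cultivars of 0.159 was below the median of 0.272 for the 100 unigenes with the highest mean, and 14 of these 100 had a smaller one. Over all 33161 tested unigenes the median was 0.186, and 38.1% had a smaller SD. Of the 9 other unigenes among the 10 highest by mean, 1 had a smaller SD than PB.225.272, which was PB.15551.42 at 0.135. The ratio of the highest to the lowest library was 1.51 for PB.225.272, and 1 of the 9, PB.46813.49, had a smaller one at 1.49. The widest ratio was 7.08, in PB.28066.14. High unigenes are defined here by level, which is also what chose PB.225.272, so these ranks are a description.

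The 9 next highest unigenes had no common direction with PB.225.272 over the libraries, and most of the signs changed without B2 replicates 1 and 2. Pearson's r of log2(RPKM + 1) with it over the 12 libraries was negative for 5 and positive for 4 of them. It ran from -0.63 for PB.15551.42 (Spearman's rho -0.54) to 0.45 for PB.46813.49 (rho 0.36). The points share the scaling of their library, and r is given as a description. In B2 replicate 2, where PB.225.272 was highest, PB.974.98 was at 8302 RPKM and PB.115.445 at 4564 RPKM, the lowest of the 12 libraries for both. Without the 2 libraries farthest from the median of PB.225.272, which are B2 replicates 1 and 2, r was negative for 3 and positive for 6 of the 9, and 4 of the 5 negative values had turned positive. PB.107.425 then had an r of 0.49, against -0.24 with all libraries, PB.115.445 of 0.43 against -0.18, PB.734.2622 of 0.40 against -0.32 and PB.974.98 of 0.13 against -0.41. Positive values that turned negative were those of PB.57706.22 (0.35 to -0.24) and PB.28066.14 (0.24 to -0.020). The sign stayed the same for PB.15551.42 (-0.63 to -0.032), PB.46813.49 (0.45 to 0.58) and PB.2130.33 (0.097 to 0.26). The 2 libraries left out were chosen by the values of PB.225.272 itself, so these changes are a description.

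The 3 unigenes whose pattern over the 12 libraries was most like that of PB.225.272 were far lower in level. They were chosen as the highest of 33160 values of Pearson's r, so a high r follows from the choice. PB.41153.1 had an r of 0.91 (rho 0.94), with 4.97 RPKM in the lowest library, a median of 6.32 and 9.71 in the highest. PB.29764.1 had an r of 0.91 (rho 0.80), with 2.15, 2.44 and 3.19 RPKM at the lowest, the median and the highest. PB.58924.5 had an r of 0.91 (rho 0.98), with 56.8, 69.8 and 95.2 RPKM. All 3 were highest in B2 replicate 2, as was PB.225.272. Without B2 replicates 1 and 2, r was 0.83, 0.82 and 0.86 for PB.41153.1, PB.29764.1 and PB.58924.5. The remaining libraries were also used for the choice, so these values are no separate check of the likeness. The median r over all 33160 unigenes was 0.11, and 198 of them had an r above 0.8.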

How the data were processed

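The authors removed low-quality reads, mapped the rest with HISAT2 2.05 to unigenes built from the PacBio long reads of B1, estimated expression with RSEM and deposited RPKM values rounded to 2 decimals, 1 column for each of the 12 libraries. The study names DESeq for its own differential test, which needs counts and was not used here. The study lists the clean bases of each library, which were not used here, but reads per unigene are not given with RPKM. Between 0.1 and 0.5 RPKM the most frequent ratio of values was 1 in all 66 pairs of libraries. Values rounded to 2 decimals share the same steps, so this check could not recover relative depth. No counting interval is given. RSEM divides reads among similar sequences, so values of near-identical unigenes are uncertain.

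Groups came from the sample titles. Unigenes at 1 RPKM or more in at least 3 libraries were fitted as log2(RPKM + 1) with limma 3.58.1 in R 4.3.3 (cultivar as the only factor, eBayes with trend), with Benjamini-Hochberg adjustment over 33161 unigenes. The log2 scale with a pseudocount understates changes of low unigenes. The fit was tested on simulated data with added differences larger than any found for PB.225.272. That test is no check of the spread that limma expected at the level of this unigene. Permutation tests, descriptions and figures used Python 3.11.15 with pandas 2.3.3, numpy 2.4.6, matplotlib 3.10.9 and scipy 1.17.1. Planned tests of isoform shares within loci were not computed, because each locus had 1 row. Of the identifiers, 0 matched a RefSeq table of 91581 genes. Identifiers and not sequences were compared, so this does not show whether the transcripts match known genes. The rule for naming took the highest unigene of each library, called members of the locus (there were none), and the 3 unigenes outside the locus most like PB.225.272. The second highest, the 10 highest and the unigenes with high last numbers were named after their values were seen. The locus and the lists were chosen with earlier results of these data known. Alternatives were a pseudocount of 0.1, no filter, a filter at 3.75 RPKM, median-ratio scaling, the replicate number as a block, fits on 2 cultivars, the adjusted p alone, and leaving out each library. The samples were described as independent, but it is not stated whether each came from 1 plant.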

Additional observations from a re-analysis of the deposited data

How the results depend on the processing

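Many of the alternatives could not change a direction, so a count over them says little of robustness. The difference of a pair was the same when a library of another cultivar was left out. A changed filter, the replicate block, 1 expected spread, a fit on the pair alone and the adjusted p alone also left it unchanged. A mean share cannot move by 1 SD when a single library is left out. Of 171 alternative values, 169 kept both direction and call, or lay within 1 SD of a share, and 0 were called in limma's tests. The exceptions were in the difference of T and G, 0.055 with all libraries, which was -0.042 without T replicate 3 and -0.030 without G replicate 3, and had no stable direction. Over the fits without 1 library each, B2 minus Z ran from 0.28 to 0.45, B2 minus T from 0.069 to 0.24, B2 minus G from 0.11 to 0.29, T minus Z from 0.12 to 0.28, T minus G from -0.042 to 0.13 and Z minus G from -0.24 to -0.078. The limma adjusted p of B2 minus Z ran from 0.081 to 0.88 over its alternatives. The highest came without a filter, where the expected spread was 2.90. Median-ratio scaling moved B2 minus Z to 0.25.

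The labels do not say that a replicate number marks a shared batch. The correlation of deviations was over 0.1 in 6 of 18 same-numbered pairs (median 0.065), not in all as pairing was taken to need, and in 2 of 36 differently numbered pairs (median -0.0090). Of the 12 libraries, 9 correlated best with their own number, a hint from the data and not from the design. With the replicate block, B2 minus Z was 0.35 (limma adjusted p = 0.296), the adjusted p of the F-test was 0.624, and the unigenes called over the whole table numbered 199 with the block and 220 without it for Z and G, and were more with the block in the 5 other comparisons, such as 275 and 250 for T and Z. Isoform shares were not tested under any setting, because each locus had 1 row. The numbers of reads per unigene are not known, which limits what can be said of the precision of the low unigenes named beside PB.225.272.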
